A study of Mus musculus with 45 samples.

Results

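The genes described here are 36 genes of cell proliferation and DNA replication, from the ring-shaped helicase that opens replication origins to the kinases, motors and ubiquitin ligase partners of mitosis. They were taken by name, and no difference between groups enters the rule. The list was nonetheless chosen with earlier results of these data known. A gene was measured where an Affymetrix probe set carried its symbol alone. Where several did, the brightest on average across the 45 arrays stood for the gene. By this rule 35 of the 36 genes were measured, of 18193 genes with such a probe set, and Ccnb1 had none. The mean of 22 of the 35 lay above the median of all probe sets, and no gene was left out for a low value.

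The arrays came from adipocytes isolated from the parametrial and periovarian fat of female C57BL/6 mice. Mice called D carried heterozygous deletions of the insulin receptor and of insulin receptor substrate 1 and lacked ApoE (IR+/- IRS1+/- ApoE-/-), and mice called E were ApoE-/- alone, so every mouse of the series lacked ApoE and no wild type was present. Diets began at 8 weeks of age and lasted 8 or 16 weeks. On the Western diet (W) there were 9 D mice at 16 weeks (DW16), 5 D mice at 8 weeks (DW8), 8 E mice at 16 weeks (EW16) and 6 E mice at 8 weeks (EW8). On Chow (C) there were 5 D mice at 16 weeks (DC16), 7 D mice at 8 weeks (DC8) and 5 E mice at 16 weeks (EC16). No E mice on Chow for 8 weeks were analysed here, so a diet effect at 8 weeks was available in D mice only.

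A dividing cell first loads a helicase built from the Mcm2 to Mcm7 proteins onto its origins, a step called licensing that Cdc6 and Cdt1 carry out. It then copies its DNA behind the sliding clamp Pcna with nucleotides made by ribonucleotide reductase (Rrm1, Rrm2) and thymidylate synthase (Tyms). Cyclins with Cdk1, the Aurora and Polo kinases and the spindle checkpoint drive mitosis, and Cdc20 and Ube2c end it by sending proteins to the proteasome. Mature adipocytes do not divide, so in fat tissue such transcripts are usually looked for in preadipocytes, endothelial cells and macrophages. These were bulk preparations, so fewer cells of a type and less RNA per cell cannot be told apart.

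All 9 adipocyte markers measured lay above the median of all probe sets, but so did all 12 macrophage, all 9 endothelial, all 9 stromal and preadipocyte and all 6 mesothelial markers. The share of RNA from other cells was not tested. Arrays from DW16 mice 1 to 7 and EW16 mice 1 to 3 had a narrower range than the rest. The 95th percentile of their log2 values lay between 10.14 and 10.85, against 10.95 to 11.14 on the other 35 arrays. For results that involve DW16 or EW16, values without these 10 arrays are therefore given where stated, and the other values use all arrays. The shares over all probe sets come from the fits with all arrays, so counts from other fits have no share beside them. A difference of 1 on the log2 scale is a 2-fold difference, and a gene was called where the adjusted p of limma was under 0.01 over all 45037 probe sets. The mouse is the replicate throughout.

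**Figure D1:**
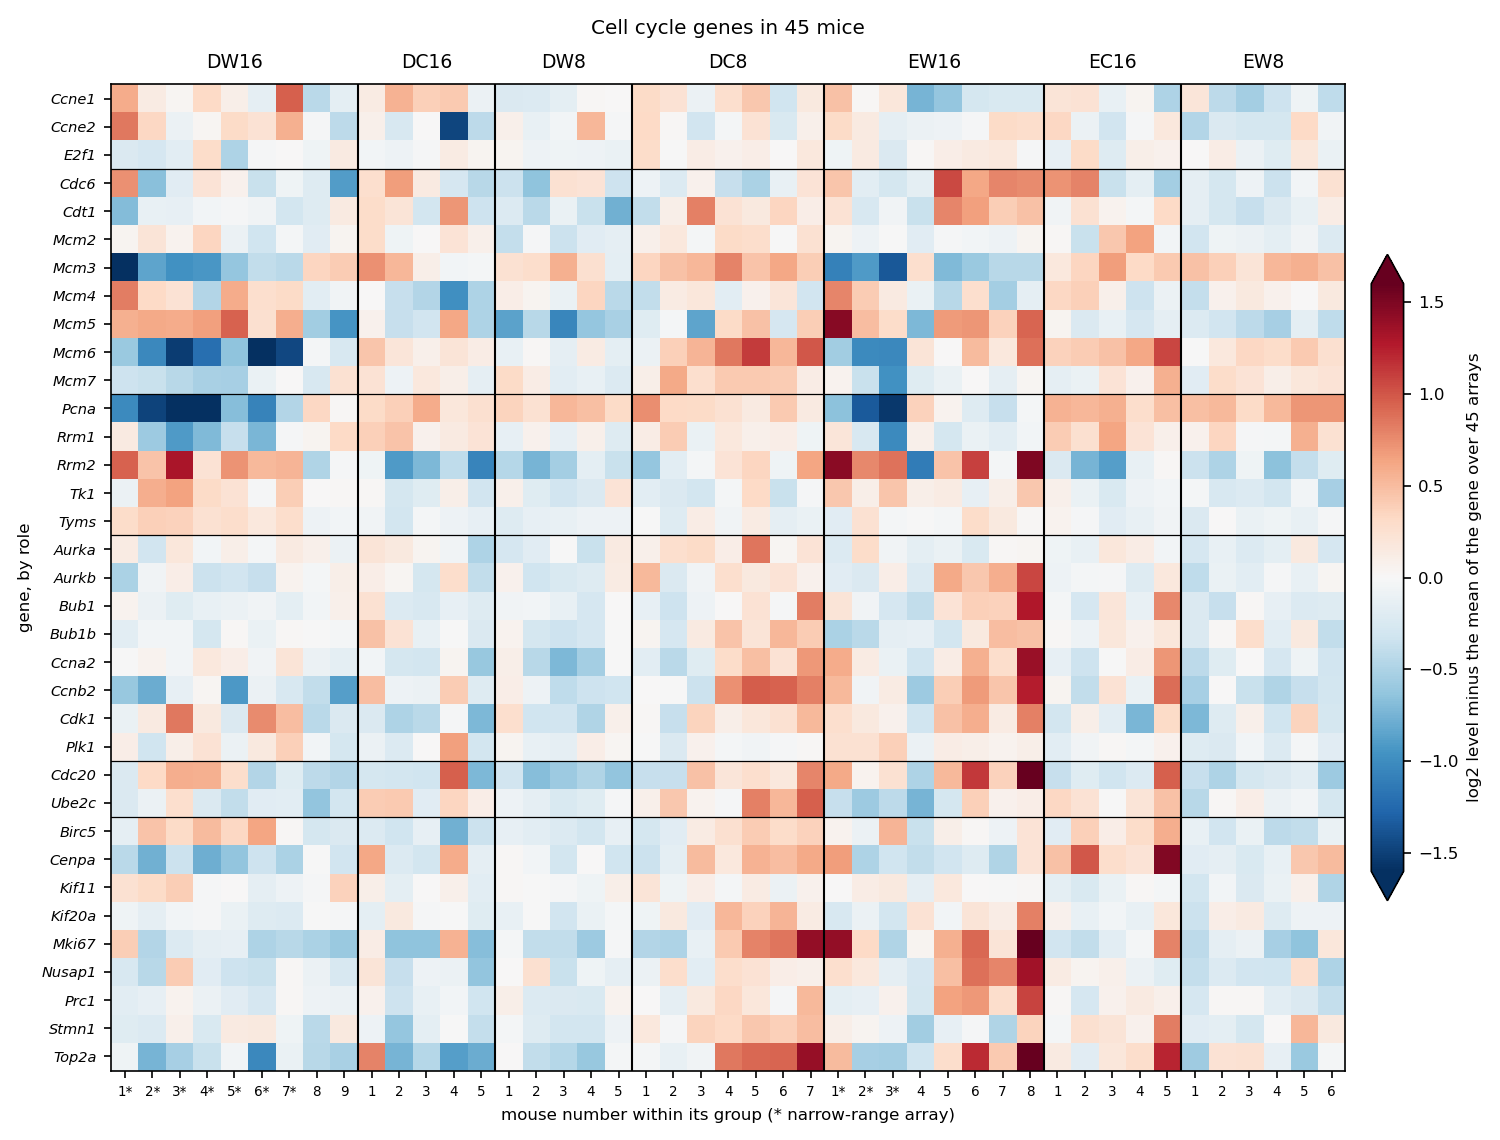
Heat map of the 35 measured genes (rows, by role) in 45 mice (columns, by group), as the log2 level minus the mean of the gene over all arrays; asterisks mark narrow-range arrays. DC8 mice 4 to 7 are red at Mki67, Top2a and Ccnb2, EW16 mouse 8 is red across most mitotic genes, and narrow-range DW16 arrays are blue at Mcm6 and Pcna.

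The clearest shift of the list lay between DW8 and DC8 mice, which asked what 8 weeks of Western diet did to adipocytes of the D genotype. Of the 35 genes, 30 had a lower mean in DW8 mice, with a median log2 difference of -0.32, against -0.04 over all genes, of which 61.1% were below 0. At an unadjusted p under 0.05, 22 genes were lower and 0 were higher, where the share over all probe sets was 9.78% lower and 9.29% higher and 2445 of 18193 genes were lower. After adjustment 1 gene was called, Stmn1, where 1.08% of all probe sets were called, and 4 genes had an adjusted p under 0.05. With any 1 of the 12 mice left out, between 16 and 23 genes were lower at an unadjusted p under 0.05 and 0 were higher. The mean of the 35 genes per mouse lay between 6.09 and 6.25 in DW8 mice, against 6.29, 6.29, 6.38, 6.55, 6.66, 6.52 and 6.69 in DC8 mice 1 to 7. DC8 mice 4 to 7 lay furthest above the DW8 mice and DC8 mice 1 and 2 just above them.

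Stmn1, which encodes stathmin, a protein that destabilises microtubules, measured 9.52, 9.34, 9.26, 9.25 and 9.46 on the log2 scale in the 5 DW8 mice. In the 7 DC8 mice it measured 9.53 at the lowest, 9.90 at the median and 10.03 at the highest. The groups did not overlap, which held for 2 of the 35 genes (Stmn1 and Ube2c) and for 2.83% of all probe sets. The log2 difference was -0.48 (SE 0.09, 95% interval -0.68 to -0.29, adjusted p = 0.0092 by limma). The call held when DC8 mouse 1 or DC8 mouse 2 was left out and was lost when any 1 of the other 10 mice was, with adjusted p between 0.0127 and 0.0307 and differences between -0.54 and -0.45 over the 12. A second Stmn1 probe set gave -0.31.

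Among the licensing genes Mcm2, a helicase subunit, measured 7.73, 8.09, 7.77, 7.93 and 7.96 in DW8 mice, against a lowest of 8.08, a median of 8.28 and a highest of 8.41 in DC8 mice. Only DW8 mouse 2 reached into the range of the DC8 mice, and the difference was -0.36 (SE 0.08, adjusted p = 0.0266). Mcm6, another subunit, measured 7.44, 7.59, 7.42, 7.70 and 7.41 in DW8 mice, against 7.48, 8.10 and 8.69 at the lowest, median and highest in DC8 mice. Its difference was -0.67 (SE 0.17, adjusted p = 0.0360), and DC8 mouse 1 was the single DC8 animal within the DW8 range. Without that mouse the difference was -0.79 and the adjusted p 0.0027. Of the 8 licensing and helicase genes 6 were lower at an unadjusted p under 0.05, with Cdc6 at -0.03 and Mcm4 at 0.03 as the other two.

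Cdc20, the activator of the ligase that ends mitosis, measured 5.37, 4.98, 5.09, 5.19 and 5.04 in DW8 mice, against 5.30, 5.86 and 6.46 at the lowest, median and highest in DC8 mice. The difference was -0.70 (SE 0.17, adjusted p = 0.0335), and the low DC8 mice were mice 1 and 2. Ube2c, the E2 enzyme that works with the same ligase, differed by -0.54 (adjusted p = 0.0642). It was named after its values were seen, as are all genes below other than Stmn1, Mcm2, Mcm3, Mcm6, Cdc20, Rrm1, Rrm2, Pcna, Tyms, Cenpa, Mki67 and Top2a.

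Mki67, the gene of the Ki-67 antigen used to stain dividing cells, measured 6.63, 6.26, 6.27, 6.07 and 6.64 in DW8 mice, against 6.16, 7.08 and 8.06 at the lowest, median and highest in DC8 mice. Top2a, the topoisomerase that untangles sister chromatids, measured 5.87, 5.47, 5.42, 5.27 and 5.84 in DW8 mice, against 5.75, 6.72 and 7.26 in DC8 mice. For both genes the 4 highest animals were DC8 mice 4 to 7, and DC8 mice 1 to 3 lay within the DW8 range. The differences were -0.62 (SE 0.29, adjusted p = 0.260) for Mki67 and -0.85 (SE 0.25, adjusted p = 0.0685) for Top2a. Both other Top2a probe sets gave differences above 0, up to 0.16.

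Among the fork and nucleotide supply genes Pcna, the clamp, averaged 12.39 ± 0.12 in DW8 mice and 12.34 ± 0.21 in DC8 mice (SD, n = 5 and 7), and Tyms averaged 3.69 ± 0.05 and 3.77 ± 0.13. Of the 5 genes of this role only Rrm2, the regulated subunit of ribonucleotide reductase, was lower at an unadjusted p under 0.05, by a log2 difference of -0.49 (adjusted p = 0.124). By role, 7 of 9 chromosome and spindle genes, 4 of 8 mitotic cyclins, kinases and checkpoint genes, both mitotic exit genes and 2 of 3 regulators of entry into replication (Ccne1 and E2f1) were lower at that threshold.

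Cell type markers were read beside this comparison. Of 9 endothelial markers 4 were lower in DW8 mice at an unadjusted p under 0.05, and the mean level of the list per mouse ran from 9.09 to 9.56 in DW8 mice and from 9.29 to 9.91 in DC8 mice. Of 8 lymphocyte markers 2 were lower, with ranges of 5.70 to 5.91 in DW8 mice and 5.84 to 6.20 in DC8 mice. Of 12 macrophage markers 0 passed in either direction, and the range in DW8 mice, 9.44 to 9.64, lay inside that in DC8 mice, 9.28 to 9.92. Stromal and preadipocyte markers ran from 10.01 to 10.35 in DW8 mice and from 9.84 to 10.88 in DC8 mice, and the DC8 lows of 9.93 and 9.84 belonged to mice 1 and 2. Of 6 mesothelial markers 0 passed in either direction, with a median difference of -0.39 and list means of 6.84 to 7.86 in DW8 mice and 6.67 to 8.33 in DC8 mice. Of 9 adipocyte markers 3 were higher and 0 lower in DW8 mice, with list means of 13.20 to 13.37 in DW8 mice and 13.07 to 13.32 in DC8 mice. The part of these markers in the differences of the cell cycle genes was not tested.

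**Figure D2:**
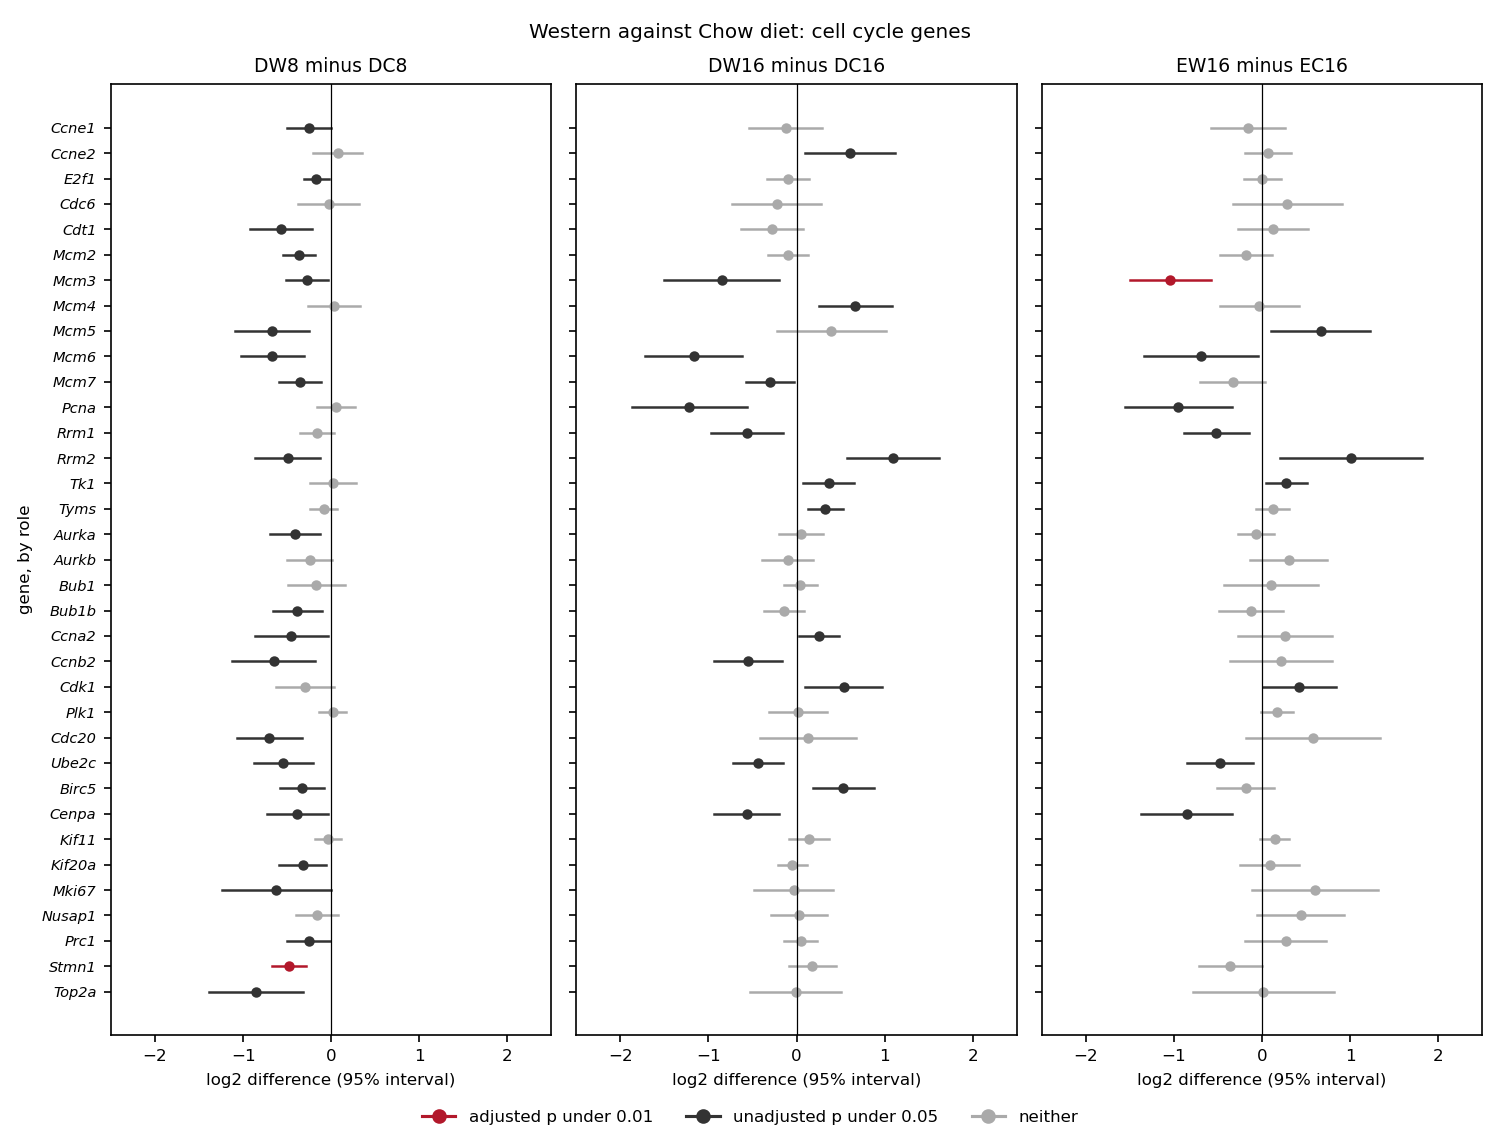
Log2 difference and 95% interval of each of 35 genes, Western minus Chow, in D mice at 8 weeks, D mice at 16 weeks and E mice at 16 weeks; red marks an adjusted p under 0.01 and dark grey an unadjusted p under 0.05. At 8 weeks 30 of 35 points lie left of 0, and at 16 weeks the points scatter to both sides.

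As most of these genes lay below 0 at 8 weeks, their promoters were read for the sequence elements that bind cell cycle regulators. RefSeq windows of 300 bases (GRCm38.p6, 250 before to 50 after a start) were found for 30 of the 36 genes. Searched on both strands were the CHR element TTTGAA, the E2F-type elements TTTGGCGC, TTTCCCGC, TTTCGCGC and TTTGCCGC, and the CCAAT box that binds NF-Y. A CHR stood in windows of 13 of the 30 genes, and every one of the 13 also held a CCAAT box, while 17.9% of all 32851 windows held a CHR and 6.95% held both. An E2F-type element stood in 7 of the 30, all but Cdk1 being licensing genes, and in 2.26% of all windows. A CCAAT box stood in 22 of the 30 and in 37.4% of all windows.

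The windows of 4 genes show both layouts, with Mcm3 and Mcm6 for the E2F-type element and Cdc20 and Top2a for the CHR. They lie on the minus strand at chr1:20820263-20820562 (Mcm3), chr1:128359656-128359955 (Mcm6), chr4:118437294-118437593 (Cdc20) and chr11:99024140-99024439 (Top2a). Capitals mark every match to the elements above, in either direction.
Mcm3: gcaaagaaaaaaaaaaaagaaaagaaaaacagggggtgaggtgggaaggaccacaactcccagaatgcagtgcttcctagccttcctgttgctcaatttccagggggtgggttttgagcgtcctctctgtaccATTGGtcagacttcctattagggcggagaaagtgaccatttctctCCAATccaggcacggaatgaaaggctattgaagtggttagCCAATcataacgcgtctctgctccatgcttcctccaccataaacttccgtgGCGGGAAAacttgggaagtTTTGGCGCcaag
Mcm6: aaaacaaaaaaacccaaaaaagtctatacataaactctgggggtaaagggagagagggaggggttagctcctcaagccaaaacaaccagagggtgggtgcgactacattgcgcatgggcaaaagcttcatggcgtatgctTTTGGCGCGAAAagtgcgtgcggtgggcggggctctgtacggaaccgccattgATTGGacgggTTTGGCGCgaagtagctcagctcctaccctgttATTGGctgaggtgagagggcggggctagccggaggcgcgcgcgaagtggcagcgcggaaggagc
Cdc20: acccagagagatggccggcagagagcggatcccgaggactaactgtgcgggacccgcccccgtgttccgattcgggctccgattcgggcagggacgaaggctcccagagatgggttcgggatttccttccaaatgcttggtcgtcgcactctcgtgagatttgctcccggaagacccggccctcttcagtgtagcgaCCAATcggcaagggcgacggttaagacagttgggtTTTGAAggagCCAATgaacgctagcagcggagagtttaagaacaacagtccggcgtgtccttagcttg
Top2a: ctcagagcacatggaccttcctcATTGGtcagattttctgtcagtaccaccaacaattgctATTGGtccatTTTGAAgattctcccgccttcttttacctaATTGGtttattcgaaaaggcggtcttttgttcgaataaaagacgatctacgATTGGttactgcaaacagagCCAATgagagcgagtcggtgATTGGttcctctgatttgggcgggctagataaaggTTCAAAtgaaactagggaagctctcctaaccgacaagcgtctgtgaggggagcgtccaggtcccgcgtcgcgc
In Mcm6 the run TTTGGCGCGAAA holds a pair of overlapping matches, TTTGGCGC and the reverse of TTTCGCGC. In Cdc20 the CHR lies from base -18 to base -13 with a CCAAT box on each side, where base 0 is the start. Top2a holds 6 CCAAT boxes and 2 CHR matches. A match is a run of letters and not a measured binding site.

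Between DW8 and DC8 mice the 13 genes with a CHR had a median log2 difference of -0.38, with 10 lower at an unadjusted p under 0.05. The 7 with an E2F-type element had a median of -0.35, with 5 lower. The 10 with neither had a median of -0.16, with 4 lower. In DW16 against DC16 mice the medians were -0.01 with a CHR, -0.27 with an E2F-type element and 0.04 with neither. In EW16 against EC16 mice they were 0.15, 0.13 and 0.06 in the same order. Cdk1 held both elements and counts in both groups of genes. The difference between these groups of genes was not tested in any comparison, nor was a part of the elements in the diet differences.

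The comparison of DW16 with DC16 mice asked the same question after 16 weeks. Here the list did not shift as a whole, with 18 of 35 genes below 0 and a median difference of -0.01, against -0.01 over all genes. At an unadjusted p under 0.05, 8 genes were lower and 8 higher, where 20.7% of all probe sets were lower and 17.2% higher. No gene was called, where 3.43% of all probe sets were, and 10 had an adjusted p under 0.05. The shares of the list were near the background in both directions.

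Mcm6 measured 5.65, 6.53 and 7.53 at the lowest, median and highest of 9 DW16 mice, against 8.01, 7.76, 7.64, 7.77 and 7.68 in the 5 DC16 mice. It was the 1 gene whose groups did not overlap, as 3.63% of all probe sets did not, with a difference of -1.17 (SE 0.26, adjusted p = 0.0107). The 7 narrow-range arrays lay between 5.65 and 6.97 and the other 2 at 7.53 and 7.31. Another Mcm6 probe set gave a difference of 0.02. Pcna measured 10.21, 10.99 and 12.33 in DW16 mice, against 12.32, 12.39, 12.61, 12.19 and 12.26 in DC16 mice, a difference of -1.22 (SE 0.31, adjusted p = 0.0163). Its narrow-range arrays lay between 10.21 and 11.54 and the other two at 12.33 and 12.03.

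Rrm2 ran the other way, at 5.16, 6.16 and 6.95 in DW16 mice, against 5.58, 4.73, 4.92, 5.24 and 4.59 in DC16 mice, a difference of 1.10 (SE 0.25, adjusted p = 0.0110). Tyms measured 3.72, 4.09 and 4.19 in DW16 mice, against 3.75, 3.52, 3.78, 3.73 and 3.67 in DC16 mice, a difference of 0.33 (SE 0.09, adjusted p = 0.0264). For both genes the narrow-range arrays were high and DW16 mice 8 and 9 lay within or near the DC16 range. Tyms averaged 4.10 on the 7 narrow-range DW16 arrays and 3.74 on the other 2. Its mean over all 45 arrays was 3.81, a low level where the median of all probe sets was 5.58. The other Rrm2 probe sets gave differences down to -0.07 and the other Tyms probe sets down to -0.21. Cenpa, the histone variant of centromeres, averaged 5.29 ± 0.25 in DW16 mice and 5.85 ± 0.45 in DC16 mice (SD, n = 9 and 5), a difference of -0.57 (adjusted p = 0.0328). Both other Cenpa probe sets gave differences above 0, up to 0.15. Rrm1, the large subunit of the reductase, averaged 8.15 ± 0.44 in DW16 mice and 8.71 ± 0.16 in DC16 mice (adjusted p = 0.0485). Another Rrm1 probe set gave a difference of 0.13.

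Leaving out the narrow-range arrays left 2 DW16 mice, and 4 genes were lower and 0 higher at an unadjusted p under 0.05 and 0 were called. Mcm3, with a difference of -0.85 on all arrays, turned in direction, to 0.12. On all arrays 3 of 5 Mcm3 probe sets were below 0, and the highest gave 0.20. Of 9 adipocyte markers 6 were lower in DW16 mice at an unadjusted p under 0.05, and the list mean per mouse ran from 11.72 to 13.21 in DW16 mice and from 12.90 to 13.31 in DC16 mice. Endothelial markers ran from 8.02 to 9.46 in DW16 mice and from 9.23 to 9.59 in DC16 mice, with 7 of 9 lower at an unadjusted p under 0.05. Macrophage markers ran from 8.51 to 9.63 in DW16 mice and from 8.83 to 9.93 in DC16 mice, with 5 of 12 lower. Stromal and preadipocyte markers ran from 8.99 to 10.33 in DW16 mice and from 9.78 to 10.63 in DC16 mice, with 5 of 9 lower. Of 6 mesothelial markers 3 were lower and 1 higher, and both neutrophil markers were higher, with list means of 5.29 to 7.84 in DW16 mice and 5.03 to 6.52 in DC16 mice. The part of array range and of these markers in the differences was not tested.

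**Figure D3:**
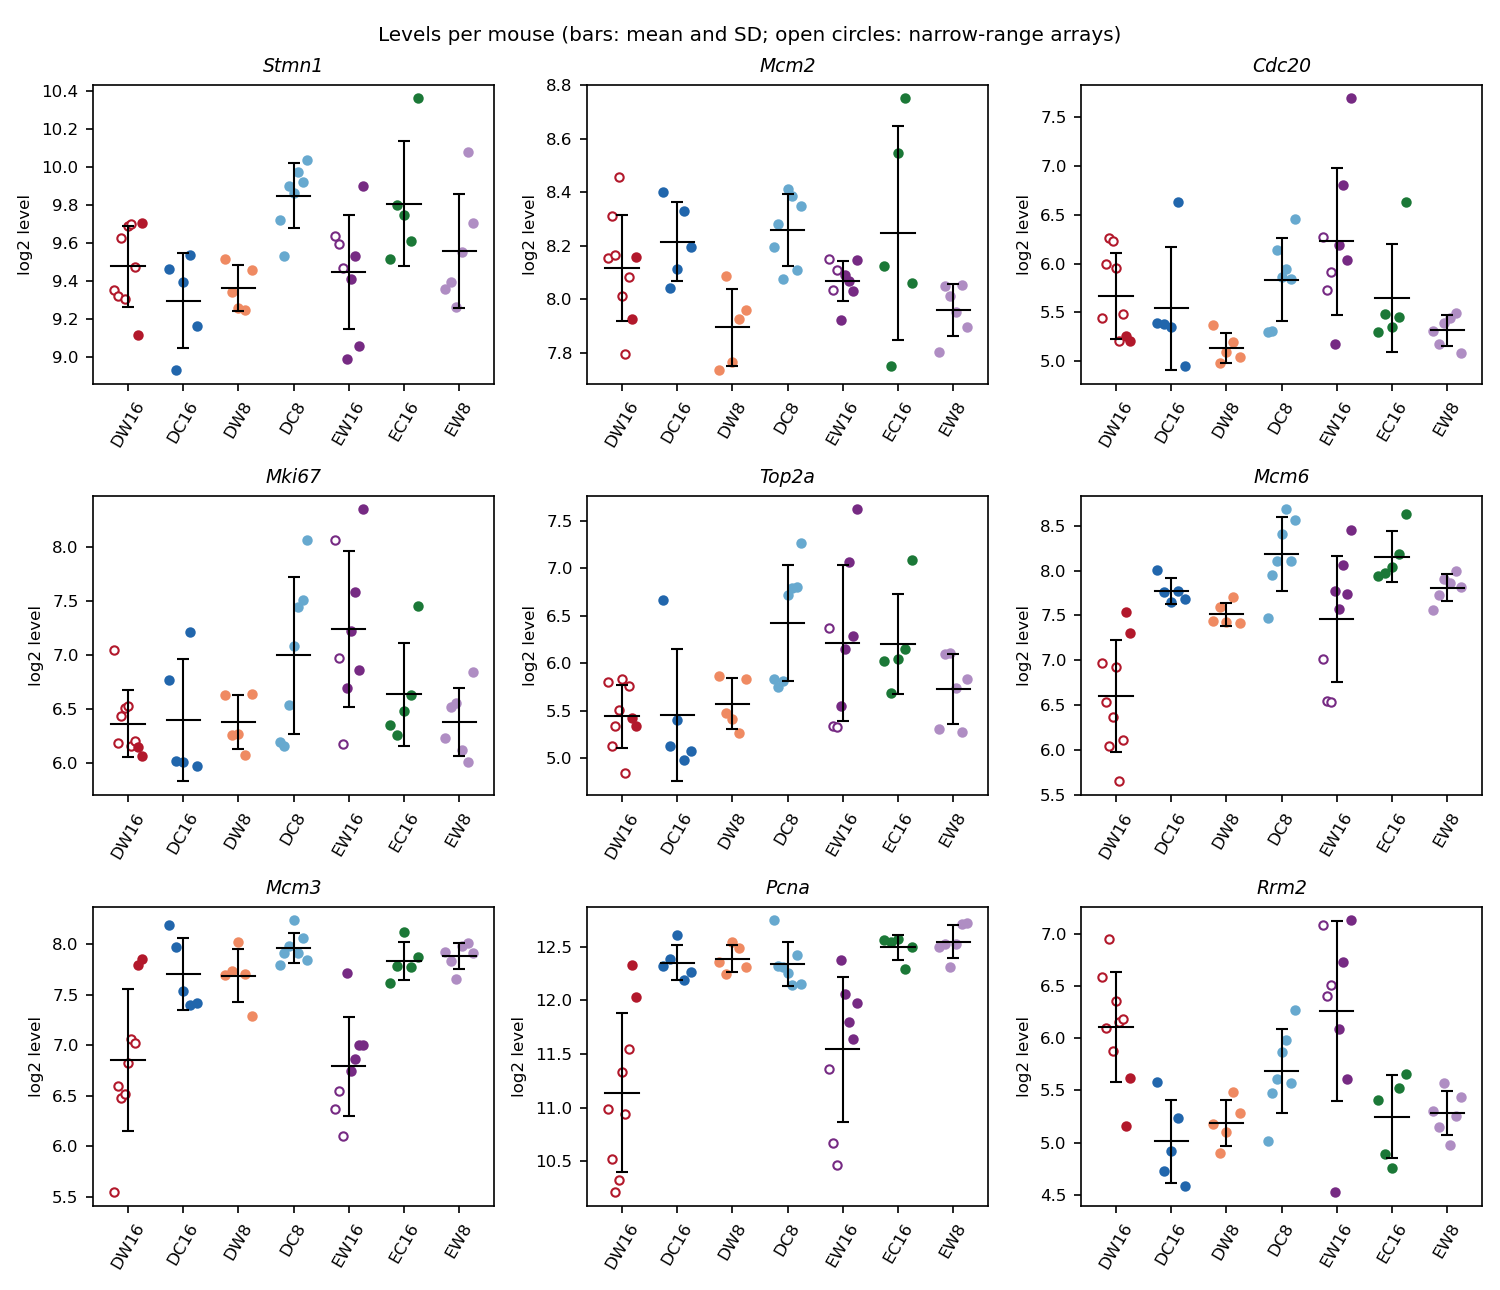
Log2 level of 9 genes in each mouse by group, with bars for mean and SD and open circles for narrow-range arrays. Stmn1 and Mcm2 are low in DW8 against DC8 mice, and the low Mcm6, Mcm3 and Pcna values of DW16 mice are mostly open circles.

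In E mice, EW16 against EC16 asked for the diet effect with the insulin receptor and IRS1 genes intact. Mcm3, a helicase subunit, fell and was the 1 gene called, where 2.66% of all probe sets were called. It measured 6.10, 6.80 and 7.72 at the lowest, median and highest of 8 EW16 mice, against 7.62, 7.79, 8.13, 7.77 and 7.88 in the 5 EC16 mice. EW16 mouse 4, at 7.72, was the only EW16 animal within the EC16 range. The difference was -1.04 (SE 0.21, 95% interval -1.50 to -0.58, adjusted p = 0.0097 by limma). Without the narrow-range arrays it was -0.77 (adjusted p = 0.0093).

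The Mcm3 call held when EW16 mouse 4 was left out and was lost when any 1 of the other 12 mice was, with differences between -1.17 and -0.94 over the 13 and adjusted p between 0.0111 and 0.0353 where it was lost. Of 5 Mcm3 probe sets 3 were lower and 2 were not. The other two lower sets gave -0.86 (adjusted p = 0.0116) and -0.49 (adjusted p = 0.0352), and the remaining pair gave 0.10 and 0.05. The same gene also fell in EW16 against EW8 mice. The 6 EW8 mice lay at 7.65, 7.92 and 8.01, and the difference was -1.09 (SE 0.19, adjusted p = 0.0068), where 1.57% of all probe sets were called. Both comparisons use the same EW16 mice. The time difference was -0.82 with an adjusted p of 0.0155 once the narrow-range arrays were left out, so that call was lost. It also held without EW16 mouse 4 and was lost when any 1 of the other 13 mice was left out.

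The rest of the list was divided in EW16 against EC16, with 14 of 35 genes below 0 and a median of 0.09. Without the narrow-range arrays 13 were below 0, with a median of 0.11. At an unadjusted p under 0.05, 6 genes were lower and 4 higher, where 15.1% of all probe sets were lower and 12.7% higher. The count of higher genes was 8 without EW16 mouse 4 and 2 without EC16 mouse 3. Cenpa averaged 5.58 ± 0.41 in EW16 mice and 6.43 ± 0.54 in EC16 mice (SD, n = 8 and 5), a difference of -0.85 (SE 0.24, adjusted p = 0.0405). Both other Cenpa probe sets gave differences above 0, up to 0.35. Pcna averaged 11.54 ± 0.68 in EW16 mice and 12.50 ± 0.12 in EC16 mice, a difference of -0.95 (SE 0.28, adjusted p = 0.0504). Rrm1 averaged 8.26 ± 0.37 in EW16 mice and 8.78 ± 0.21 in EC16 mice, a difference of -0.52 (SE 0.17, adjusted p = 0.0725). Another Rrm1 probe set gave a difference of 0.18. Pcna averaged 10.83 on the 3 narrow-range EW16 arrays and 11.97 on the other 5. In the same order Cenpa averaged 5.70 and 5.51, and Rrm1 8.10 and 8.36. At an unadjusted p under 0.05, 5 of 12 macrophage and 5 of 9 stromal and preadipocyte markers were lower in EW16 mice. Of 9 adipocyte markers 3 were lower and 1 higher. Of 9 endothelial, 8 lymphocyte and 4 epithelial markers 2 each were lower. Of 7 ovarian markers 1 was lower and 1 higher, against 1 and 0 in DW8 against DC8 and 0 and 2 in DW16 against DC16 mice. Of 6 mesothelial markers 4 were lower in EW16 mice, with list means of 6.37 to 7.32 in EW16 mice and 7.35 to 8.30 in EC16 mice. The part of all these markers was not tested.

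Mki67 and Top2a differed between EW16 mice by more than 2 on the log2 scale. Mki67 measured 8.06, 6.97, 6.18, 6.69, 7.22, 7.58, 6.86 and 8.35 in EW16 mice 1 to 8, against 6.35, 6.26, 6.48, 6.63 and 7.45 in EC16 mice. Top2a measured 6.37, 5.35, 5.33, 5.55, 6.15, 7.07, 6.28 and 7.62 in EW16 mice, against 6.02, 5.69, 6.05, 6.15 and 7.09 in EC16 mice. The SD of Top2a was 0.82 in EW16 mice and 0.52 in EC16 mice, and the groups overlapped for both genes. The differences were 0.61 (95% interval -0.11 to 1.32) for Mki67 and 0.02 (-0.79 to 0.82) for Top2a.

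Whether the diet effect differed between times or genotypes was tested as an interaction. In D mice the diet effect at 16 weeks minus that at 8 weeks had a median of 0.27 over the list, with 12 genes higher and 1 lower at an unadjusted p under 0.05, where 11.9% of all probe sets were higher and 15.8% lower. No gene was called, where 0.00444% of all probe sets were, and 5 had an adjusted p under 0.05. Among them were Rrm2 at 1.59 (SE 0.32, adjusted p = 0.0178), Stmn1 at 0.66 (adjusted p = 0.0254) and Pcna at -1.27 (adjusted p = 0.0373). The other Rrm2 probe sets gave values down to 0.07. Without the narrow-range arrays 2 genes were higher and 0 lower at an unadjusted p under 0.05. The diet effect at 16 weeks in D minus E mice had a median of -0.02, with 3 genes higher and 1 lower, where 3.37% of all probe sets were higher and 2.95% lower, and 0% of the probe sets were called. Leaving out the narrow-range arrays gave 1 higher and 3 lower.

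Between genotypes on the same diet no gene of the list was called, and 0%, 0% and 0.00222% of all probe sets were in DW8 against EW8, DW16 against EW16 and DC16 against EC16. In DW8 against EW8 mice 3 genes were lower and 0 higher at an unadjusted p under 0.05, Mcm5, Mcm6 and Rrm1, where 2.08% of all probe sets were lower and 2.05% higher. Mcm6 had a difference of -0.30 there (adjusted p = 0.985). In DC16 against EC16 mice 30 of 35 genes were below 0, with a median of -0.07. Of them 5 were lower and 0 higher at an unadjusted p under 0.05, where 2.86% of all probe sets were lower and 3.41% higher. Stmn1 averaged 9.30 ± 0.25 in DC16 mice and 9.81 ± 0.33 in EC16 mice (SD, n = 5 each), a difference of -0.51 (adjusted p = 0.764).

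In DW16 against EW16 mice 9 genes were lower and 0 higher at an unadjusted p under 0.05, where 7.9% of all probe sets were lower and 6.74% higher. Mki67 averaged 6.36 ± 0.31 in DW16 mice and 7.24 ± 0.72 in EW16 mice (SD, n = 9 and 8), a difference of -0.88 (SE 0.25, adjusted p = 0.241). Top2a averaged 5.44 ± 0.33 in DW16 mice and 6.21 ± 0.82 in EW16 mice, a difference of -0.77 (adjusted p = 0.260), while both other Top2a probe sets gave differences above 0, up to 0.23. The mean of the 35 genes per mouse lay between 6.13 and 6.30 in DW16 mice, against 6.51, 6.21, 6.13, 6.07, 6.43, 6.61, 6.42 and 6.89 in EW16 mice 1 to 8. EW16 mice 1 and 5 to 8 lay above every DW16 mouse, and EW16 mice 2 to 4 did not. With any 1 of the 17 mice left out, between 6 and 12 genes were lower and between 0 and 2 higher, the 2 being without DW16 mouse 8. With array range as a block 5 genes were lower and 1 higher. Among the narrow-range arrays alone, 7 DW16 against 3 EW16 mice, 2 were lower and 3 higher, and without them 7 were lower and 1 higher.

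Time on a diet was compared last. In DC16 against DC8 mice, older against younger D mice on Chow, 30 of 35 genes were below 0 with a median of -0.26, against -0.01 over all genes. At an unadjusted p under 0.05, 10 were lower and 0 higher, where 4.08% of all probe sets were lower and 4.65% higher, and 0% of them were called. With any 1 of the 12 mice left out, between 6 and 13 were lower and between 0 and 1 higher, the low count being without DC16 mouse 5. Stmn1 measured 9.46, 8.93, 9.39, 9.54 and 9.16 in DC16 mice, against 9.53, 9.90 and 10.03 at the lowest, median and highest in DC8 mice, a difference of -0.55 (SE 0.12, adjusted p = 0.178). Top2a had a difference of -0.97 (SE 0.32, adjusted p = 0.389), with DC16 mouse 1 at 6.67 and the other four between 4.99 and 5.41. The DC8 mice are the ones that DW8 mice were compared with, so both comparisons share those animals. The mean of the 35 genes per mouse was 6.47, 6.20, 6.18, 6.35 and 6.00 in DC16 mice, so DC8 mice 4 to 7 lay above every DC16 mouse and DC8 mice 1 to 3 within their range.

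In DW16 against DW8 mice 4 genes were lower and 7 higher at an unadjusted p under 0.05, where 20.9% of all probe sets were lower and 18.8% higher. The count of higher genes was 4 without DW8 mouse 4. No gene was called, where 5.41% of all probe sets were, but 5 were without DW16 mouse 8 and 5 without DW16 mouse 9. Pcna differed by -1.25 (adjusted p = 0.0128) and Rrm2 by 0.92 (adjusted p = 0.0134). Other Rrm2 probe sets gave differences down to -0.18. On the 2 DW16 arrays outside the narrow range Pcna averaged 12.18 and Rrm2 5.39, against 12.39 and 5.19 in DW8 mice. Without the narrow-range arrays 2 genes were lower and 0 higher, and Mcm3 turned in direction, from -0.84 on all arrays to 0.13. On all arrays 3 of 5 Mcm3 probe sets were below 0, and the highest gave 0.39.

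In EW16 against EW8 mice 8 of 35 genes were below 0 with a median of 0.25, against 0.04 over all genes. At an unadjusted p under 0.05, 15 were higher and 4 lower, where 15.6% of all probe sets were higher and 14.8% lower. With the narrow-range arrays left out 16 were higher and 4 lower. With any 1 of the 14 mice left out, between 11 and 18 were higher and between 2 and 4 lower, the 2 being without EW8 mouse 2 or EW8 mouse 5. The mean of the 35 genes per mouse lay between 6.08 and 6.33 in EW8 mice, and EW16 mice 1 and 5 to 8 lay above that range while EW16 mice 2 to 4 did not. Mki67 averaged 7.24 ± 0.72 in EW16 mice and 6.38 ± 0.31 in EW8 mice (SD, n = 8 and 6), a difference of 0.86 (SE 0.29, adjusted p = 0.0700). Cdc20 averaged 6.23 ± 0.75 in EW16 mice and 5.32 ± 0.16 in EW8 mice, a difference of 0.91 (SE 0.29, adjusted p = 0.0574). Another Cdc20 probe set gave -0.03. On the 3 narrow-range EW16 arrays Mki67 averaged 7.07 and Cdc20 5.97, against 7.34 and 6.38 on the other 5. By role, 4 of 8 mitotic cyclins, kinases and checkpoint genes and 5 of 9 chromosome and spindle genes were higher at an unadjusted p under 0.05. Of either role 0 were lower. At that threshold 6 of 9 adipocyte, 4 of 6 mesothelial and 3 of 9 stromal and preadipocyte markers were lower in EW16 mice. Of 9 endothelial, 12 macrophage and 4 epithelial markers 2 each were lower. No marker of these 6 lists was higher. Of 8 lymphocyte markers 2 were higher and 0 lower, and of 7 ovarian markers 1 was higher and 0 lower. The part of these markers in the differences was not tested.

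**Figure D4:**
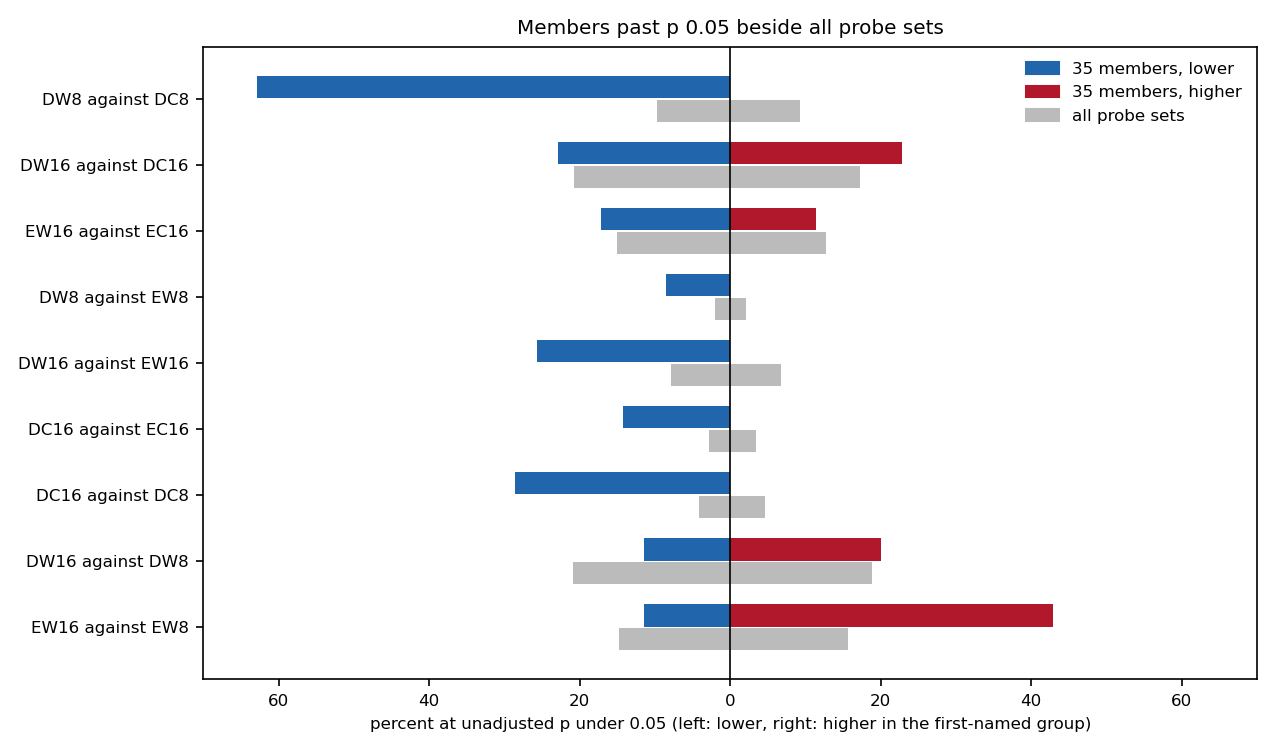
Percent of the 35 genes (coloured bars) and of all probe sets (grey bars) at an unadjusted p under 0.05 in 9 comparisons, lower in the first-named group to the left and higher to the right. DW8 against DC8 has 22 genes lower and 0 higher, and EW16 against EW8 has 15 higher and 4 lower.

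Levels were also averaged by role in each mouse. The 9 chromosome and spindle genes averaged 5.44 to 5.71 in DW8 mice and 5.62 to 6.29 in DC8 mice. They averaged 5.50 to 6.56 in EW16 mice, 5.74 to 6.27 in EC16 mice and 5.42 to 5.65 in EW8 mice. The 8 licensing and helicase genes averaged 7.59 to 7.89 in DW8 mice and 7.85 to 8.24 in DC8 mice. EW16 mouse 8 was the highest and EW16 mouse 4 the lowest animal of its group for the chromosome and spindle genes.

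**Figure D5:**
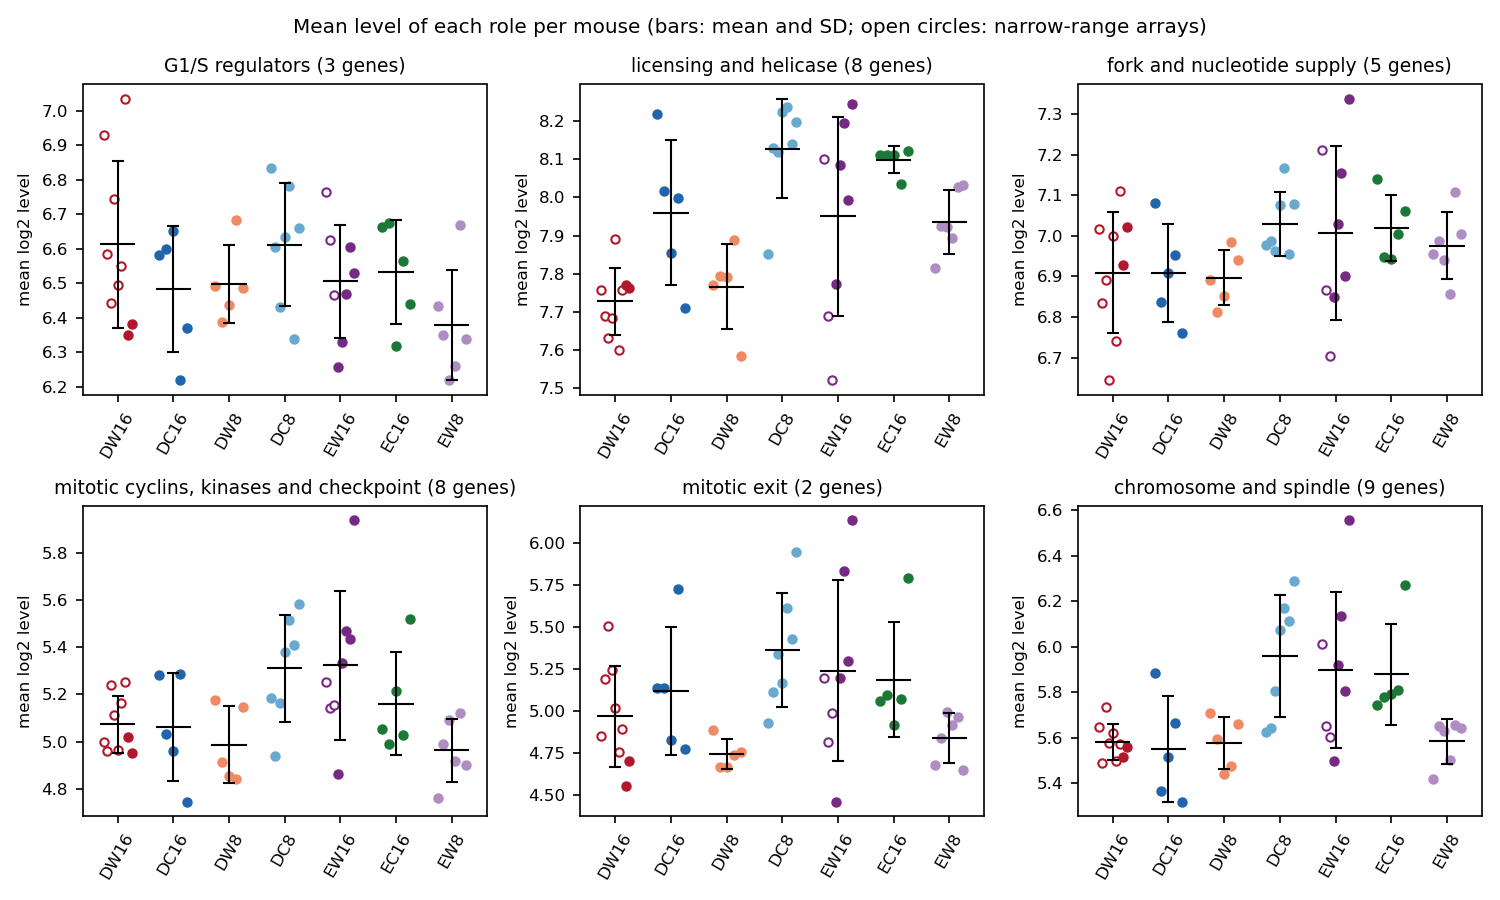
Mean log2 level of the genes of each of 6 roles in each mouse by group, with bars for mean and SD and open circles for narrow-range arrays. The chromosome and spindle genes run from 5.50 to 6.56 in EW16 mice and from 5.42 to 5.65 in EW8 mice.

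Further genes of the cell cycle were counted in lists that do not hold the 35. Of 35 other mitosis genes 9 were lower and 1 higher in DW8 against DC8 mice at an unadjusted p under 0.05, with a median of -0.12 and 0 called. Of 35 other replication genes 8 were lower and 0 higher, with a median of -0.14 and 0 called. The shares over all probe sets were 9.78% lower and 9.29% higher there, 20.7% and 17.2% in DW16 against DC16 mice, and 15.1% and 12.7% in EW16 against EC16 mice. In DW16 against DC16 mice 2 of the mitosis genes were lower and 15 higher, and 8 of the replication genes were lower and 5 higher. In EW16 against EC16 mice 0 of the mitosis genes were lower and 10 higher, and 7 of the replication genes were lower and 3 higher. In EW16 against EW8 mice 0 of the mitosis genes were lower and 18 higher, and 2 of the replication genes were lower and 7 higher. The shares over all probe sets were 14.8% lower and 15.6% higher there. The counts at 16 weeks use all arrays, the narrow-range ones included. Of the mitosis genes 14 of 35 had a mean above the median of all probe sets, and of the replication genes 30 of 35 did. The part of array range in these counts was not tested.

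The last list held 15 brakes of the cycle and members of the DREAM complex, which represses cell cycle genes in resting cells. In DW8 against DC8 mice 2 of the 15 were lower and 6 higher at an unadjusted p under 0.05, with a median of 0.20 and 3 below 0. In DW16 against DC16 mice 5 were lower and 1 higher, with a median of -0.16, and in EW16 against EC16 mice 3 were lower and 1 higher, with a median of 0.02. Of the 15, 1, 2 and 1 were called in these 3 comparisons, where 1.08%, 3.43% and 2.66% of all probe sets were. Cdkn1c, the inhibitor of cyclin-dependent kinases known as p57, fell under Western diet in all 3 diet comparisons. It measured 9.38, 9.10, 8.65, 8.86 and 8.98 in DW8 mice, against 9.50, 9.77 and 10.38 at the lowest, median and highest in DC8 mice, with no overlap and a difference of -0.88 (SE 0.16, adjusted p = 0.0085). The difference was -1.40 (SE 0.28, adjusted p = 0.0078) in DW16 against DC16 mice. It was -1.59 (SE 0.18, adjusted p = 0.0014) in EW16 against EC16 mice, again with no overlap. With the narrow-range arrays left out the last 2 were -1.01 (adjusted p = 0.597) and -1.43 (adjusted p = 0.0013). Rbl2, the pocket protein p130 of the DREAM complex, had a difference of -1.87 (adjusted p = 0.0088) in DW16 against DC16 mice and of -0.46 (adjusted p = 0.711) without the narrow-range arrays.

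Gins2 and Rfc4 were the replication genes called in a diet comparison. Gins2, a subunit of the GINS complex that joins the Mcm helicase at the fork, fell in DW16 against DC16 mice by a difference of -0.54 (SE 0.10, adjusted p = 0.0062) and in EW16 against EC16 mice by -0.74 (SE 0.14, adjusted p = 0.0078), with no overlap in either. In EW16 mice 1 to 8 it measured 6.76, 6.89, 6.90, 7.12, 6.54, 6.86, 6.58 and 6.35, against 7.97, 7.43, 7.46, 7.23 and 7.34 in EC16 mice. Without the narrow-range arrays the differences were -0.45 (adjusted p = 0.597) and -0.80 (adjusted p = 0.0072). Rfc4, a subunit of the complex that loads Pcna onto DNA, fell in DW16 against DC16 mice by -0.83 (SE 0.15, adjusted p = 0.0052) and had a difference of -0.69 (adjusted p = 0.0193) in DW8 against DC8 mice, with no overlap in either. Its difference without those arrays in D mice at 16 weeks was -0.51 (adjusted p = 0.571).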

How the data were processed

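Values were the deposited log2 signals that the authors made by RMA from Affymetrix MG430-2.0 arrays, 1 array per mouse as the labels give it, for 45037 probe sets in 45 mice; 0 columns of the table were left unused. RMA subtracts background, equalises the distributions and summarises probes, so a level is relative within its probe set and no gene's level was set against another's. The distributions of the deposited values were still not equal, with a 95th percentile from 10.14 to 11.14 across arrays. A mean above the median of all probe sets was counted only as a rough sign of signal. The number of mice limits the precision. Nothing in the sources used here gives a scan date or another batch.

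Symbols came from the platform annotation, in which 34945 probe sets had 1 symbol, 932 several and 9160 none. Of the 35 probe sets used, 6 end in _x_at and 5 in _s_at, which can also bind related transcripts. Group means were compared with limma 3.58.1 in R 4.3.3 (lmFit, eBayes, 2-sided), fitted to those groups alone. P-values were adjusted by Benjamini-Hochberg across every probe set, with a call at an adjusted p under 0.01. Diet effects were compared as interaction contrasts. Fits were tested on simulated data with known changes. SAM, which the study also used, was not run. Alternatives were quantile normalization again, centring, a level filter, 1 spread over all groups, other priors, a replicate block, leaving out single mice and leaving out narrow-range arrays. Replicate numbers are not known to pair mice. In no comparison did every same-numbered pair correlate above 0.1, though 5 of 8 pairs did in DW16 against EW16. Such correlations cannot decide whether the numbers pair mice.

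Values per mouse are given for genes called in a comparison, for the 4 smallest adjusted p in each diet comparison and for Mki67, Top2a, Pcna and Mcm2. The genes and lists were chosen with earlier results of these data known. Promoters came from RefSeq tables of GRCm38.p6.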

Additional observations from a re-analysis of the deposited data

Results flagged for a closer look

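For 12 named genes in each of 7 groups, 84 sets of values were tested for a single mouse apart from its group. The test serves groups of 4 to 10 mice. It flagged 6 of the 84 sets, and chance flags about 1 in 20. The sets share mice and are not independent. Cdc20 was 6.63 in DC16 mouse 4, with the next highest at 5.39, and 6.63 in EC16 mouse 5, with the next highest at 5.48. Rrm1 was 7.44 in EW16 mouse 3, a narrow-range array, with the next lowest at 8.17. Pcna was 12.29 in EC16 mouse 4, with the next lowest at 12.49. Mki67 was 7.05 in DW16 mouse 1, with the next highest at 6.52. Top2a was 6.67 in DC16 mouse 1, with the next highest at 5.41.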

How the results depend on the processing

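In DW8 against DC8 mice the 22 genes lower at an unadjusted p under 0.05 stayed within 1.5 times that count under the alternatives listed here, and between 16 and 23 with single mice left out. Refits without DC8 mice 4 to 7 lowered the counts of lower genes in DW8 against DC8 and DC16 against DC8 mice by more than that, and refits without EW16 mice 5 to 8 did so for higher genes in EW16 against EW8 and lower genes in DW16 against EW16 mice. These mice were picked for their high values, so those refits are no fair alternative and their counts are not given. Single mice of the groups of over 5 were left out of the time comparisons and of DW16 against EW16 after the data were seen. Calls were less stable. Of the log2 differences of named genes under the alternatives, 1009 kept direction and side of the threshold, 88 came to pass it, 45 ceased to and 2 reversed, Mcm3 without the narrow-range arrays at 0.12 in DW16 against DC16 and 0.13 in DW16 against DW8 mice. The cause was not tested.

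Called genes in DW8 against DC8 mice numbered 1, against 4 at an adjusted p under 0.05, 0 after quantile normalization, 0 with 1 spread over all 7 groups and 0 to 3 with a mouse left out. In DW16 against DC16 mice they numbered 0, against 10 at 0.05, 2 after quantile normalization, 1 after centring, 3 among probe sets above the median level, 9 with 1 spread, 2 with a trended robust prior and 0 to 4 with a mouse left out. In EW16 against EC16 mice they numbered 1, against 2, 0 after quantile normalization, 3 with 1 spread and 0 to 3 with a mouse left out. In DW16 against DW8 mice they numbered 0, against 5, 1 after quantile normalization, 2 above the median level, 5 with 1 spread, 2 with the trended prior and 0 to 5 with a mouse left out. In EW16 against EW8 mice they numbered 1, against 5, 5 with 1 spread, 0 without the narrow-range arrays and 0 to 5 with a mouse left out. The interaction over time had 0, against 5. No share of all probe sets is given for these alternatives or for the 0.05 threshold, so these counts are not read against a background.

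With the replicate number as a block, calls numbered 0, 7, 0, 7 and 0 in these 5 comparisons in the same order. In the same mice without the block they numbered 0, 9, 0, 9 and 0. No share of all probe sets is given for these fits either. Both fits kept only mice whose replicate number occurred in both groups. On the DW16 side these were mice 1 to 5, all narrow-range arrays, and mice 8 and 9 were left out. The part of array range in these counts was not tested. Replicate numbers are not known to pair mice.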
